A study of Sus scrofa with 11 samples.

Results

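Leucine, isoleucine and valine, the branched-chain amino acids (BCAA), are broken down in mitochondria by a shared start and 3 separate ends, and ketone bodies are burned by an adjoining short route. Expression of 31 genes of these routes was examined in day 10 skin wounds of Yucatan minipigs, and the genes were chosen by name, as the enzymes and regulators of transamination, of the leucine, isoleucine, valine and propionate arms, and of ketone body use. Of the 31 names, 30 were found among the 30376 genes of the expression values, and all 30 passed the filter on low values described below. The missing name was MMAA, which encodes a chaperone of the cobalamin-dependent mutase. A gene on chromosome 8 with no such name, LOC100523624, carries a description as the methylmalonic aciduria type A protein. It was not counted as a member, and its level was 1.04 ± 0.0349 FPKM in the diabetic and 1.02 ± 0.122 FPKM in the non-diabetic group (SD, n = 7 and 4).

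The diabetic group was 7 full-thickness wounds of a female Yucatan minipig, 6 months old when it received streptozotocin (STZ, 125 mg/kg intravenously), a toxin of the insulin-producing beta cells. It was kept on insulin that was stopped ahead of wounding. The non-diabetic group was 4 such wounds of another female Yucatan minipig, without STZ, whose age is not given in the sources used here. Wounds were made on the back with a 2 cm punch and the tissue was taken on day 10. Each group was 1 animal, so the spread within a group is that between wounds of 1 animal, and diabetes cannot be told apart from other differences between the 2 animals. The question addressed here was whether transcripts of BCAA and ketone breakdown differed between the wounds of the diabetic and the non-diabetic minipig.

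As background, the aminotransferases BCAT1 and BCAT2 turn each BCAA into its keto acid, and the branched-chain keto acid dehydrogenase (BCKDH) complex then commits it to breakdown. A kinase, BCKDK, switches the complex off by phosphorylation and a phosphatase, PPM1K, switches it on. Leucine carbon ends as acetyl-CoA and the ketone body acetoacetate, valine carbon as propionyl-CoA, and isoleucine carbon as acetyl-CoA and propionyl-CoA. Propionyl-CoA enters the citric acid cycle through a biotin-dependent carboxylase and a cobalamin-dependent mutase. Outside the liver, OXCT1 activates acetoacetate so that it can be burned.

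Levels were given as FPKM, read numbers scaled to gene length and by a factor of each library, which allows genes of different length to be compared. Differences were tested on log2(FPKM + 0.5) with limma over the 13956 genes that reached 0.5 FPKM in at least 4 of the 11 wounds. A gene was called where the Benjamini-Hochberg adjusted p was under 0.05 and the log2 fold change beyond 0.5 in either direction. Fold changes are on the log2(FPKM + 0.5) scale, diabetic over non-diabetic, and so understate changes of low genes. Levels are given as mean ± SD or as the range over wounds, the 7 diabetic ahead of the 4 non-diabetic unless stated otherwise.

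Of the 30 transcripts tested 6 fell in the diabetic wounds and 0 rose (limma). Those that fell were PPM1K, the phosphatase of the BCKDH complex; IVD, MCCC1 and MCCC2, early enzymes of the leucine arm; MUT, the mutase at the end of the propionate arm; and OXCT1, which activates acetoacetate in ketone body use. In all 6 of the called members every diabetic wound lay under every non-diabetic wound. The other 24 members were not called. Members called lower were thus 6 of 30, beside 1.66% of all genes tested, and members called higher were 0 of 30, beside 1.35%. Groups did not overlap in 6 members, all lower, beside 2.96% of all genes tested in that direction and 2.69% in the other. The members were chosen with earlier results of these data known, so these shares are descriptions and not independent support. At an unadjusted p under 0.05 and with any fold change, limma placed 13 members lower and 2 higher, beside 1310 and 1257 of all genes tested, and voom on the recovered reads also called 0 members higher. The median log2 fold change of the members was -0.13, with 20 under 0 and 10 above, beside 0.01 over all genes tested. The plot of fold changes by arm shows that the called members were spread over 4 of the 6 arms.

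**Figure D1:**
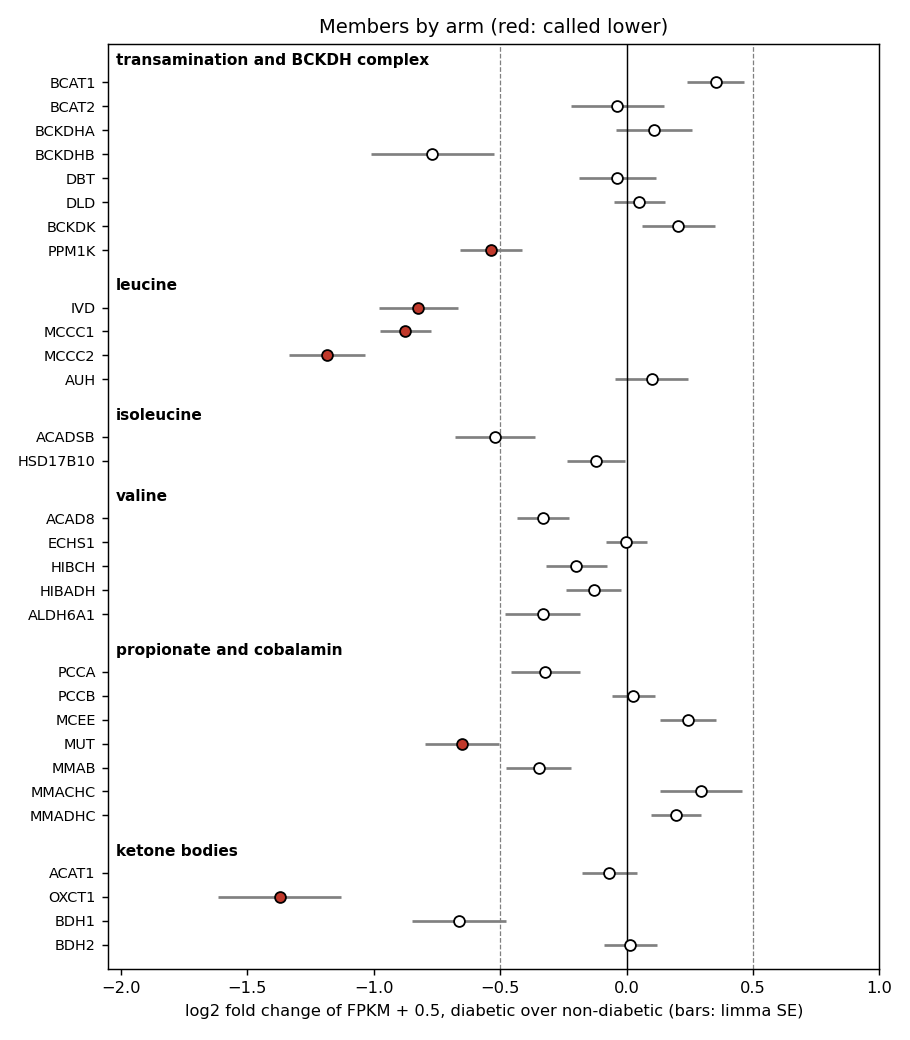
Log2 fold change of FPKM + 0.5, diabetic over non-diabetic, for the 30 members by arm. Points are limma estimates from 7 and 4 wounds, bars are the standard errors, dashed lines mark the fold change threshold and red marks the 6 called members, of which OXCT1 and MCCC2 lie furthest to the left.

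In pieces of whole wound, fewer cells of a type and less RNA per cell cannot be told apart. Markers of other cell types moved between the groups alongside these transcripts. Of 10 adipocyte markers tested, 2 were called lower, LPL (19.3 ± 3.52 against 46.7 ± 11.98 FPKM) and LEP (0.156 ± 0.156 against 1.31 ± 0.753 FPKM). The most abundant adipocyte marker, FABP4, stood at 403 ± 126 against 210 ± 58.6 FPKM, and ADIPOQ at 64.1 ± 42.6 against 106 ± 38.5 FPKM, neither of them called, nor was PLIN1 (18.6 ± 15.4 against 32.9 ± 13.7 FPKM). CIDEC gave 3.04 ± 2.27 against 6.91 ± 5.08 FPKM. Of the 10 adipocyte markers 8 had log2 fold changes under 0, with a median of -0.74. The summed level of 11 adipocyte markers, most of it FABP4, overlapped between the groups, at 307 to 932 against 346 to 563 FPKM. Of 11 macrophage markers, 3 were called higher (CD14, MRC1 and MARCO), with sums of 758 to 1722 against 491 to 914 FPKM. Of the fibroblast (11 tested), endothelial (10), keratinocyte (10) and neutrophil (6) markers limma called 0, with 1 fibroblast marker at an unadjusted p under 0.05. Of the sebaceous gland markers 2 of 10 passed the filter, SOAT1 was the most abundant at 5.11 to 11.3 FPKM, AWAT1 was at 0 in every wound and AWAT2 at 0.0588 FPKM or less. Under the filter, MOGAT2 was lower in every diabetic wound (0 to 0.0325 against 0.234 to 2.23 FPKM), while FA2H was at 0.0498 to 1.75 against 0 to 0.114 FPKM. The part of these cell types in the results was not tested.

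A pair of wounds had low sums of keratinocyte and of neutrophil markers. The keratinocyte markers summed to 43.9 FPKM in diabetic replicate 4 and to 319 FPKM in non-diabetic replicate 1, against medians of 4615 and 2576 FPKM. The neutrophil markers summed to 45.0 and 301 FPKM in the same wounds, against medians of 7251 and 9169 FPKM. S100A12 was the most abundant neutrophil marker, so the sums do not weigh all 8 markers evenly. Diabetic replicate 3 had skeletal muscle markers, with 957 FPKM of ACTA1, against at most 0.0272 FPKM in any other wound, and 168 FPKM of CKM. PECAM1, of endothelium, ran from 75.4 to 108 FPKM and CD68, of macrophages, from 38.4 to 127 FPKM, while CSF3R, of neutrophils, ran from 2.75 to 11.06 FPKM. The labelled tissue was skin, and COL1A1, the main collagen of dermis, was at 4615 FPKM or more in all 11 wounds, COL3A1 at 7095 FPKM or more and KRT5, of basal keratinocytes, at 29.2 to 2861 FPKM. The wounds had 28314785 to 40168372 reads on genes each. A single read on 2 kb was worth 0.0112 to 0.0194 FPKM, which did not follow the reads on genes alone. Diabetic replicates 2 and 5 had 37922563 and 37723496 reads on genes, at 0.0112 and 0.0153 FPKM for such a read.

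The leucine arm held 3 of the 6 called transcripts out of 4 members. Isovaleryl-CoA dehydrogenase, IVD, performs the first step that is specific to leucine. Its level in the diabetic wounds ran from 6.49 over a median of 9.53 to 12.5 FPKM. The non-diabetic wounds 1 to 4 gave 17.7, 16.1, 17.2 and 16.3 FPKM. The non-diabetic values lay within a narrow band, all above the highest diabetic wound, while the diabetic values were more spread, with replicates 1 and 6 lowest. The log2 fold change was -0.82 ± 0.16 (SE, limma, adjusted p = 0.0160). The gene lies on the minus strand of chromosome 1 (chr1:130896488-130910582, Sscrofa11.1).

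MCCC1 and MCCC2 encode the biotin-bearing alpha and the beta subunit of methylcrotonyl-CoA carboxylase, the step that follows IVD in leucine breakdown. For MCCC1 (chr13:120983226-121070695, minus strand) the diabetic wounds gave 2.25, a median of 2.81 and at most 3.19 FPKM. The 4 non-diabetic wounds stood at 5.32, 5.30, 6.08 and 5.56 FPKM. Both groups were tight and the gap between them was wider than the range of either. The mean fell from 5.56 ± 0.362 to 2.82 ± 0.357 FPKM (SD, n = 4 and 7), a log2 fold change of -0.88 ± 0.10 (SE, limma, adjusted p = 0.000983).

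For MCCC2 (chr16:47917308-47996540, plus strand) the diabetic wounds ran from 2.72 over a median of 2.97 to 4.59 FPKM. The non-diabetic wounds gave 7.97, 7.59, 10.1 and 7.22 FPKM, with replicate 3 highest. Again no value overlapped, and the 3 diabetic wounds with library names in L (3.50 to 4.59 FPKM) all lay above the 4 with names in R (2.72 to 2.97 FPKM). The log2 fold change was -1.18 ± 0.15 (SE, limma, adjusted p = 0.00157). The next enzyme, the hydratase AUH, was not called: it stood at 3.57 to 6.16 against 4.03 to 5.46 FPKM, with a log2 fold change of 0.10 ± 0.14 (SE).

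The sum of the 4 leucine transcripts was 16.9 to 24.8 FPKM in diabetic wounds (median 20.8) and 33.1 to 38.8 FPKM in non-diabetic wounds (median 34.5). MCCC1, MCCC2 and OXCT1 were called whichever single wound was left out. IVD lost its call without non-diabetic replicate 1 (limma, adjusted p = 0.0556) or non-diabetic replicate 3 (adjusted p = 0.0527), with log2 fold changes of -0.80 and -0.81.

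**Figure D2:**
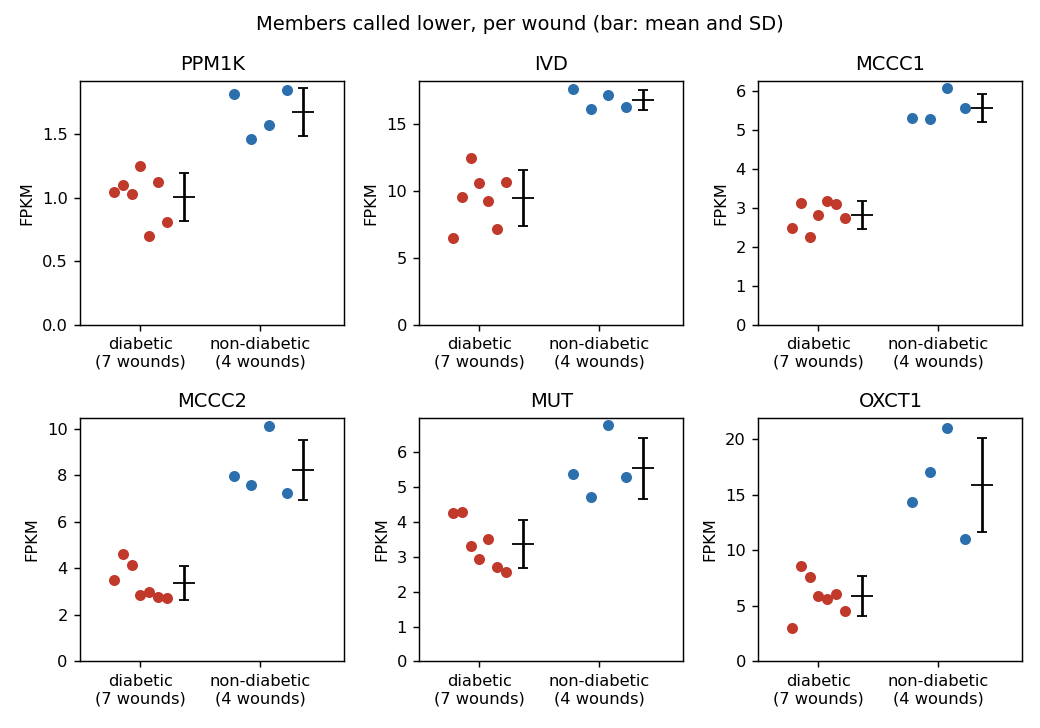
FPKM of the 6 called members in each of the 7 diabetic and 4 non-diabetic wounds (points), with the group mean and SD (bars). No red point reaches the level of the lowest blue point in any panel; OXCT1 shows the widest spread, 11.03 to 21.0 FPKM, among non-diabetic wounds.

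The ketone body arm held 1 called member of 4. OXCT1, 3-oxoacid CoA-transferase, moves CoA from succinyl-CoA to acetoacetate and lies at chr16:26514497-26659739 (minus strand). In diabetic wounds it ran from 3.05 over a median of 5.88 to 8.55 FPKM, and in non-diabetic wounds it was 14.3, 17.0, 21.0 and 11.03 FPKM. This was the largest change among the members, 15.8 ± 4.23 to 5.89 ± 1.83 FPKM (SD, n = 4 and 7), a log2 fold change of -1.37 ± 0.24 (SE, limma, adjusted p = 0.0123). The lowest wound was diabetic replicate 1 and the highest non-diabetic replicate 3.

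BDH1, the mitochondrial dehydrogenase that interconverts hydroxybutyrate and acetoacetate, was not called at 0.714 ± 0.236 against 1.44 ± 0.518 FPKM (SD, n = 7 and 4; log2 fold change -0.66 ± 0.19, SE, limma, adjusted p = 0.0788). Its groups overlapped through diabetic replicate 2 at 1.09 FPKM, and its highest value was 2.18 FPKM in non-diabetic replicate 1. ACAT1, the thiolase that closes both the ketone and the isoleucine route, was at 19.0 ± 2.54 and 19.8 ± 1.77 FPKM, and BDH2, a cytosolic relative of BDH1, at 4.58 ± 0.633 and 4.51 ± 0.262 FPKM. The summed arm overlapped, at 23.96 to 34.5 against 34.0 to 47.1 FPKM.

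Of 7 genes of ketone synthesis and transport, 4 passed the filter and limma called 0, also with 0 at an unadjusted p under 0.05. The most abundant of them, the monocarboxylate carrier SLC16A1, gave 12.4 ± 4.72 against 12.8 ± 1.44 FPKM.

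The 250 bases before the annotated starts of the genes were read from the genome of the same build (Sscrofa11.1, RefSeq annotation) and are printed for IVD, MCCC1, MCCC2 and OXCT1, the 4 members whose calls held most often. Capitals mark the CCAAT box, searched as CCAAT, and the GC box, searched as GGGCGG, each on both strands.

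IVD, chr1:130910583-130910832, minus strand: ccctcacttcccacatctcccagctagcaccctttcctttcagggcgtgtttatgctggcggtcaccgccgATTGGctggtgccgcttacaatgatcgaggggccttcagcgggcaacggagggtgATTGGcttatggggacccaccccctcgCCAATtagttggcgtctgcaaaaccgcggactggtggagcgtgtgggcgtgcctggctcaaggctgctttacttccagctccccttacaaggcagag

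MCCC1, chr13:121070696-121070945, minus strand: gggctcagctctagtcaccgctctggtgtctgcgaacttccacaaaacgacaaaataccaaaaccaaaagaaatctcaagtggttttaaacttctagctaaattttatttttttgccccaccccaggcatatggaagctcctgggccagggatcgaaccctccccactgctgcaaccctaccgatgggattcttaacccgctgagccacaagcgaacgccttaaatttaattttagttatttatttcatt

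MCCC2, chr16:47917058-47917307, plus strand: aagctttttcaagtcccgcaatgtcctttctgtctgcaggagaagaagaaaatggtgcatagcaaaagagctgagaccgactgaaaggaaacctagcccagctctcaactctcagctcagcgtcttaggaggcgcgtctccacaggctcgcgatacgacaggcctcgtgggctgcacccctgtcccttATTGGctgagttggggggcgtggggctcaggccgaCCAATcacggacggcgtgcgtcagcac

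OXCT1, chr16:26659740-26659989, minus strand: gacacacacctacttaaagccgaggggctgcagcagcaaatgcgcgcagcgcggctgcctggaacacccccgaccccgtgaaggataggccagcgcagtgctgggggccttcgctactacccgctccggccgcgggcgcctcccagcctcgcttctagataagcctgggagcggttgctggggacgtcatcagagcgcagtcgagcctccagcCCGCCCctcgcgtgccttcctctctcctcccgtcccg

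The IVD stretch held 3 CCAAT boxes and that of MCCC2 held 2, while OXCT1 had 1 GC box and MCCC1 none of either. Among the 6 called genes 4 held a CCAAT box (IVD, MCCC2, MUT and PPM1K), among all 30 members 16, and among 20667 protein-coding genes 32.0% in a stretch of the same length. A GC box stood in 3 of the called genes, 16 of the members and 44.4% of all. The motifs TCAAGGTCA of the estrogen-related receptors, AGGTCA repeated after 1 free base of PPAR dimers, and GCGCA followed by TGCGC of NRF1, each searched on both strands without mismatch, were in 0 of the 30 members and in 0.324%, 0.0242% and 0.735% of all genes. The members' stretches had a median of 15 CpG sites and 57.8% GC, beside 11 and 57.2% over all genes. These are matches of letters in 1 window, and no binding was measured here.

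The shared start held 1 called member of 8. PPM1K (chr8:130748207-130772936, plus strand) was a low transcript, at 0.695 to 1.25 FPKM with a median of 1.05 in diabetic wounds. Non-diabetic wounds gave 1.81, 1.46, 1.58 and 1.85 FPKM. The lowest value was that of diabetic replicate 5, and the groups were separated by a gap smaller than the range of the diabetic wounds. The log2 fold change was -0.54 ± 0.12 (SE, limma, adjusted p = 0.0346), close to both thresholds. The call was lost without any one of diabetic replicates 3, 5 and 7 or of the 4 non-diabetic wounds (limma, adjusted p up to 0.107, log2 fold change -0.48 to -0.58).

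BCKDHB, the beta subunit of the E1 component, was not called at 4.73 ± 1.67 against 8.11 ± 1.60 FPKM (SD, n = 7 and 4; log2 fold change -0.77 ± 0.24, SE, limma, adjusted p = 0.112). Diabetic replicate 7, at 7.72 FPKM, lay above 2 of the 4 non-diabetic wounds, and diabetic replicate 1 was lowest at 2.24 FPKM. Its partner BCKDHA was at 22.4 ± 3.66 against 20.6 ± 3.14 FPKM. The remaining subunits, the transacylase DBT (3.59 ± 0.842 against 3.64 ± 0.334 FPKM) and the dehydrogenase DLD (23.5 ± 2.48 against 22.7 ± 2.52 FPKM), were also not called. DLD is shared with the pyruvate and oxoglutarate dehydrogenase complexes.

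The kinase BCKDK stood at 24.1 ± 4.31 against 20.6 ± 1.32 FPKM and was not called. The mitochondrial aminotransferase BCAT2 gave 21.6 ± 4.86 against 21.9 ± 4.15 FPKM. The cytosolic BCAT1 had the largest positive log2 fold change of the members, 0.35 ± 0.11 (SE, limma, adjusted p = 0.117), at 5.03 to 5.93 against 3.15 to 5.05 FPKM. Only non-diabetic replicate 1, at 5.05 FPKM, reached the diabetic range of BCAT1.

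Ratios between partner transcripts within a wound do not depend on the library's scaling, and are given as descriptions without a test. PPM1K per BCKDK, the phosphatase over the kinase of the same complex, was 0.0268 to 0.0653 in diabetic wounds (median 0.0399). In non-diabetic wounds it was 0.0716 to 0.0913 (median 0.0813), without overlap. OXCT1 per ACAT1 was 0.189 to 0.428 against 0.635 to 1.02, also without overlap. MCCC2 per PCCB, the beta subunits of a pair of sister biotin carboxylases, was 0.173 to 0.291 against 0.505 to 0.671. In each of these ratios the numerator was a called member and the denominator was not, so their separation adds no support to the calls.

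Other ratios overlapped between the groups. MCCC1 per PCCA, the biotin-bearing alpha subunits, was 0.329 to 0.482 against 0.471 to 0.702. BCKDHB per BCKDHA was 0.152 to 0.349 against 0.290 to 0.492, with a median of 0.204 against 0.410. IVD per ACADSB, the first acyl-CoA dehydrogenases of the leucine and isoleucine arms, was 2.44 to 5.01 against 3.59 to 6.18. MCCC2 per MCCC1 was 0.895 to 1.83 against 1.297 to 1.66.

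**Figure D3:**
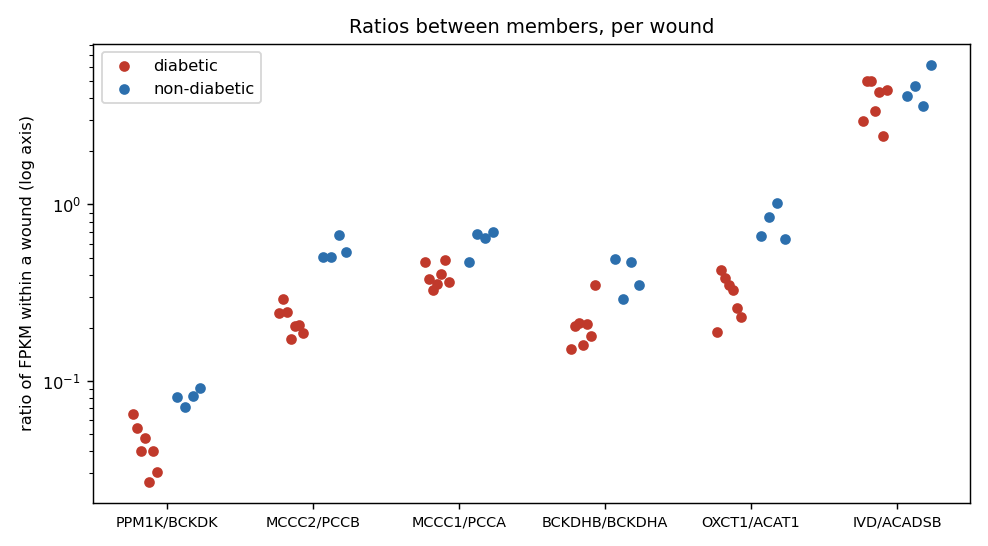
Ratio of the FPKM of paired members within each wound, on a log axis, for 7 diabetic (red) and 4 non-diabetic (blue) wounds. The groups stand apart for PPM1K/BCKDK, MCCC2/PCCB and OXCT1/ACAT1 and overlap for the other 3 pairs.

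In the isoleucine arm limma called 0 of 2 members, with 1, ACADSB, lower at an unadjusted p under 0.05. ACADSB, the short branched-chain acyl-CoA dehydrogenase, gave 1.91 to 3.13 against 2.63 to 4.79 FPKM (log2 fold change -0.52 ± 0.16, SE, limma, adjusted p = 0.101). The groups overlapped through non-diabetic replicate 4 at 2.63 FPKM. HSD17B10, the dehydrogenase before the thiolase step, was at 18.5 ± 2.80 against 20.1 ± 1.89 FPKM.

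In the valine arm limma called 0 of 5 members, with ACAD8 and ALDH6A1 lower at an unadjusted p under 0.05, and the log2 fold changes of all 5 lay between -0.33 and 0.00. ACAD8, the isobutyryl-CoA dehydrogenase, was at 11.9 to 14.3 against 12.6 to 18.1 FPKM (log2 fold change -0.33 ± 0.10, SE, limma, adjusted p = 0.105). ECHS1, a hydratase shared with fatty acid oxidation, was the most abundant member and the flattest, at 83.5 ± 7.16 against 83.3 ± 1.36 FPKM. HIBCH, the hydrolase that frees hydroxyisobutyrate, gave 3.50 ± 0.568 against 4.06 ± 0.189 FPKM. Its successor HIBADH gave 12.6 ± 1.81 against 13.7 ± 0.650 FPKM. ALDH6A1, the semialdehyde dehydrogenase that yields propionyl-CoA, gave 2.44 ± 0.386 against 3.23 ± 0.847 FPKM.

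In the propionate arm 1 of 7 members was called. MUT (named MMUT in current nomenclature; chr7:43597313-43624603, minus strand) encodes methylmalonyl-CoA mutase, which makes succinyl-CoA. It ran from 2.58 over a median of 3.31 to 4.29 FPKM in diabetic wounds, and gave 5.37, 4.73, 6.79 and 5.30 FPKM in the non-diabetic wounds. Diabetic replicates 1 and 2, at 4.26 and 4.29 FPKM, came closest to the non-diabetic range. The log2 fold change was -0.65 ± 0.15 (SE, limma, adjusted p = 0.0347). The call held only without diabetic replicate 1 or 2, and was lost when any 1 of the other 9 wounds was left out (limma, adjusted p 0.0547 to 0.130, log2 fold change -0.56 to -0.72).

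The carboxylase before it was not called in either subunit: PCCA was at 7.17 ± 1.06 against 9.09 ± 1.62 FPKM and PCCB at 15.1 ± 1.25 against 14.8 ± 1.00 FPKM. The epimerase MCEE gave 8.51 ± 1.16 against 7.08 ± 0.658 FPKM. MMAB, which makes the adenosylcobalamin that MUT requires, gave 2.45 ± 0.507 against 3.22 ± 0.137 FPKM (log2 fold change -0.35 ± 0.13, SE, limma, adjusted p = 0.174). The cobalamin processing genes MMACHC (1.64 ± 0.433 against 1.21 ± 0.0908 FPKM) and MMADHC (35.0 ± 4.04 against 30.4 ± 1.54 FPKM) had positive log2 fold changes, 0.29 and 0.19, and were not called either.

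**Figure D4:**
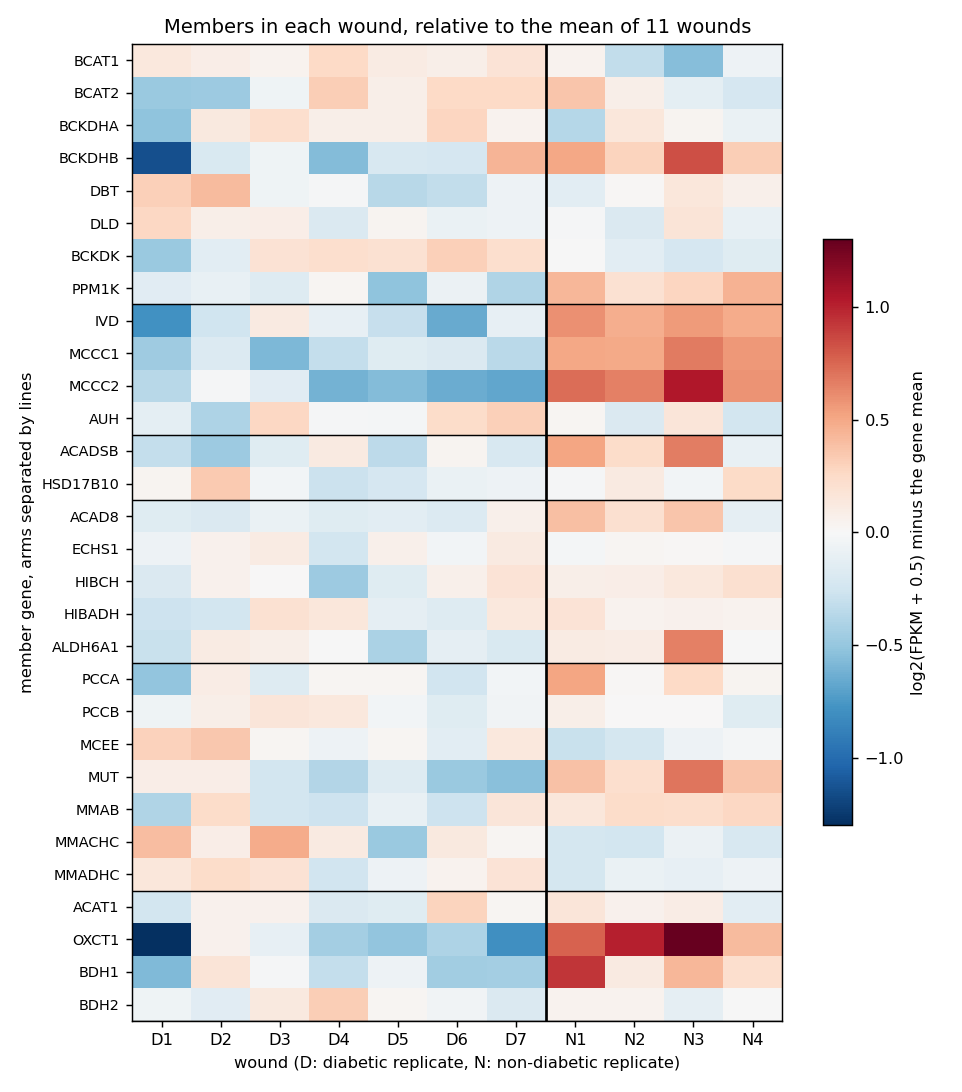
Log2(FPKM + 0.5) of each of the 30 members in each of the 11 wounds, minus the mean of that gene over the wounds; D1 to D7 are diabetic and N1 to N4 non-diabetic replicates, and lines separate the arms. The MCCC1 and MCCC2 rows are blue or near white in D1 to D7 and red in N1 to N4, and D1 carries the darkest blue fields, in BCKDHB and OXCT1.

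The heat map of all members shows how the wounds of a group differed. Diabetic replicate 1 was the lowest of its group in 11 of the 30 members, among them IVD, BCKDHB, OXCT1 and BDH1. Diabetic replicate 2 was the highest of its group in 11 members, and non-diabetic replicates 1 and 3 of theirs in 11 each. Non-diabetic replicates 2 and 4 were the lowest of their group in 10 and 9 members. Library names in the labels begin with L or R, without a stated meaning. They end in a code that differs between the diabetic and non-diabetic wounds, also without a stated meaning. Between the 3 L-named and 4 R-named diabetic wounds 5 of the 30 members did not overlap (BCAT2, DLD, BCKDK, MCCC2 and HSD17B10). Neither this count nor those of the lowest and highest wounds were made over all genes, so they are not read as a trait of the members.

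Within the R-named wounds alone (4 and 2) 5 of the 6 transcripts were called, all but PPM1K, beside 4.94% of all genes tested called lower in that fit. Within the L-named wounds alone (3 and 2) limma called 0 members, and 5 genes higher and 4 lower over the whole table (0.0287% lower). The log2 fold changes of MCCC1 were -0.90 among L-named and -0.87 among R-named wounds, those of OXCT1 -1.33 and -1.40, and those of IVD -0.84 and -0.81. They differed more for MCCC2, -0.86 and -1.44, and for MUT, -0.32 and -0.93. BCAT2 took opposite signs, -0.55 among L-named (limma, adjusted p = 0.270) and 0.40 among R-named wounds (adjusted p = 0.04999, under the fold change threshold). Without the 2 wounds with low sums of keratinocyte and neutrophil markers, 3 members were called, MCCC1, MCCC2 and OXCT1, beside 0.717% of all genes called lower. IVD (log2 fold change -0.83, limma, adjusted p = 0.0588), MUT (-0.64, 0.118) and PPM1K (-0.54, 0.0945) were not called among those 9 wounds, at fold changes within 0.02 of those over all wounds.

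Genes that feed or flank these routes were listed as 40 neighbours, of which 35 passed the filter, 1 was called lower and 0 higher (limma), with a median log2 fold change of 0.02. At an unadjusted p under 0.05, 3 were lower and 7 higher. The called neighbour was ACACA, acetyl-CoA carboxylase, a biotin enzyme like MCCC1 and PCCA but of fatty acid synthesis. It ran from 4.38 to 6.28 against 7.47 to 18.6 FPKM (log2 fold change -0.96 ± 0.21, SE, limma, adjusted p = 0.0289), and the call was lost without any one of 6 wounds, diabetic replicates 3, 5, 6 and 7 and non-diabetic replicates 1 and 2. The other biotin enzyme genes, PC (8.29 to 52.7 against 20.7 to 42.1 FPKM) and ACACB (0.986 ± 0.251 against 1.10 ± 0.158 FPKM), were not called. Nor was HLCS, the ligase that attaches biotin to all of them (1.84 ± 0.795 against 2.53 ± 0.943 FPKM), although it was called lower among the R-named wounds alone.

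Of 7 BCAA carriers and regulators limma called 0, with 1 lower and 2 higher at an unadjusted p under 0.05. SLC7A5, the leucine importer of the cell surface, varied from 4.59 to 30.3 FPKM among the diabetic and 3.23 to 9.93 FPKM among the non-diabetic wounds (limma, adjusted p = 0.182). Its partner chain SLC3A2, the most abundant of the list, gave 55.4 ± 5.56 against 42.3 ± 3.91 FPKM (log2 fold change 0.39; limma, adjusted p = 0.0512). The mitochondrial carrier SLC25A44 gave 5.19 ± 1.63 against 6.02 ± 1.78 FPKM, and KLF15, a transcription factor of BCAA breakdown, 0.664 ± 0.258 against 1.19 ± 0.199 FPKM (limma, adjusted p = 0.108).

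IVD, ACADSB and ACAD8 pass electrons to the electron transfer flavoprotein, made of ETFA and ETFB, and the enzyme ETFDH takes them from it. These 3 genes had positive log2 fold changes and were not called. ETFB was higher in every diabetic wound, 25.4 to 33.5 against 20.3 to 24.5 FPKM (log2 fold change 0.36; limma, adjusted p = 0.0794), under the fold change threshold. ETFA, the most abundant, gave 31.9 ± 2.02 against 27.5 ± 1.69 FPKM and ETFDH 25.9 ± 2.57 against 22.6 ± 0.990 FPKM. The cobalamin carriers (6 tested) and the succinyl-CoA neighbours (9 tested) held 0 genes called by limma. At an unadjusted p under 0.05 the former had 1 lower and 1 higher and the latter 1 higher. Their most abundant genes, TCN2 (25.4 ± 5.21 against 28.4 ± 6.18 FPKM) and DBI (148 ± 49.3 against 134 ± 29.5 FPKM), overlapped between groups. CUBN, a receptor in cobalamin uptake, was under the filter and lower in every diabetic wound, at 0.111 to 0.286 against 0.337 to 0.453 FPKM.

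A pair of other mitochondrial lists gave the level of the organelle's other transcripts. A list of 22 genes was mostly of the citric acid cycle and respiratory chain, and 16 of them were found. Those listed for respiratory chain complexes III and IV and for ATP synthase were not, so the chain rested on complexes I and II. Among the 16 limma called 0 (1 higher at an unadjusted p under 0.05). Their median log2 fold change was 0.12, with 13 of 16 above 0. The most abundant, VDAC1, a gene of neither route, gave 89.6 ± 5.29 against 80.4 ± 5.18 FPKM. Of 16 genes of fatty acid oxidation 2 were called higher and 0 lower, with a median of 0.21. They were CPT1A, the carnitine palmitoyltransferase that admits fatty acids to mitochondria (33.9 ± 1.59 against 7.84 ± 1.82 FPKM), and SLC25A20, the carnitine carrier (26.97 ± 2.63 against 12.3 ± 1.95 FPKM). ECHS1 belongs both to that list and to the members.

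**Figure D5:**
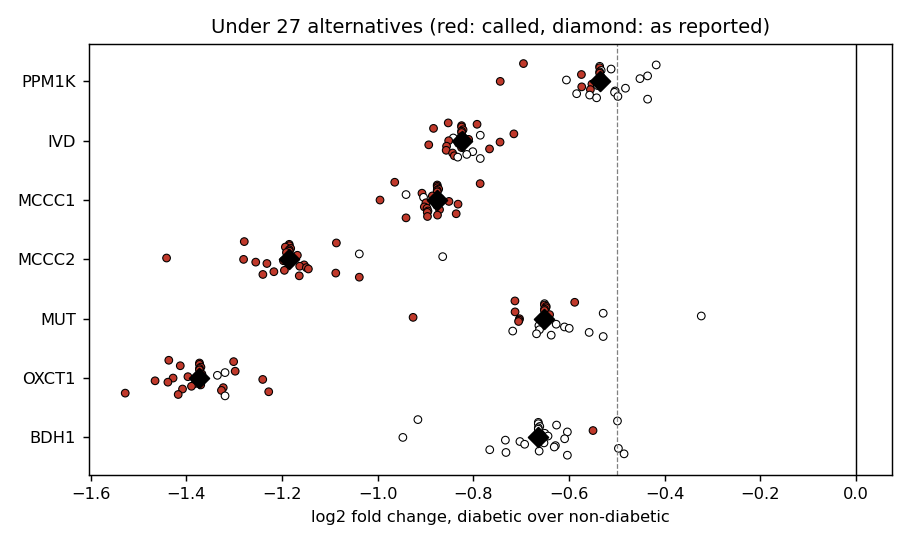
Log2 fold change, diabetic over non-diabetic, of the 6 called members and BDH1 under 27 other ways of processing or selecting the wounds (points; red where called, open where not) and as reported (diamonds). MCCC1 and MCCC2 were called in 25 of 27, OXCT1 in 24, IVD in 21, MUT in 13, PPM1K in 10 and BDH1 in 1, and every point lies under 0.

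The plot of alternatives separates the 6 called members by how often the call held, from 25 of 27 for MCCC1 and MCCC2 to 10 of 27 for PPM1K. BDH1, not called as reported, was called with library weights (log2 fold change -0.55; limma, adjusted p = 0.0490). The other 23 members were called under none of the 27.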

How the data were processed

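RNA was sequenced from polyA libraries of 11 wounds with a directional (dUTP) kit. Per the labels and methods, the authors used fastp for trimming, HISAT2 2.2.1 for mapping to Sscrofa11.1 and featureCounts 2.0.6 for counting, and deposited FPKM values for 30376 genes. Per the methods, StringTie 2.2.3 was used to assemble the mapped reads before they were counted. The formula behind the deposited FPKM values is not given in the sources used here. Multiplied by gene length, 100% of values were whole multiples of 1 read within 0.05 reads, so read numbers could be recovered. Of the gene identifiers, 30335 are in the RefSeq annotation of the same build, with the same start and end for 100.0%. A blank name was carried by 24 genes.

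Values were compared as log2(FPKM + 0.5) with limma 3.58.1 (lmFit, eBayes with trend) in R 4.3.3, 7 diabetic against 4 non-diabetic wounds, with no covariates and Benjamini-Hochberg adjustment over the 13956 genes at 0.5 FPKM or more in at least 4 wounds. P-values measure the spread between wounds of 1 animal a group. The exact permutation test planned for members under the filter was not needed, since none was. The test was tried first on simulated independent counts. These lacked the differences in make-up between wounds and between animals, so that trial does not vouch for the calls. Levels, ratios and promoter motifs were computed in Python 3.11.15 with pandas 2.3.3 and numpy 2.4.6. Intervals on counts were not used: reads are not unique molecules, and members rested on 43 to 4080 recovered reads a wound, the fewest for MMACHC.

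The members, neighbour lists, marker lists and tests were chosen with earlier results of these data known. Named genes were every member, the called and most abundant genes of each list and the markers that define a cell type, of which KRT14 had no row under that name. ACACB, AWAT1, CIDEC, CUBN, ETFB, ETFDH, FA2H, HLCS, KLF15, LOC100523624, MOGAT2, SLC25A44, SLC7A5 and, in the alternatives, ECHDC1 and SLC5A6 were named outside this rule after their values were seen. The 27 alternatives changed the pseudocount (0.1 and 1), the filter (none, or 1 FPKM), the scaling (quantile, median), the spread estimate, library weights, a replicate block, the letter of the library name, the choice of wounds, and the model (voom, applied to recovered reads), and 1 of them, replicates 1 to 4 of both groups without a block, was added after the data were seen. Same-numbered wounds came from different animals and deviated together with correlations of -0.27, 0.22, 0.07 and -0.48, so the numbers were not taken as pairs. No columns were left unmapped (0), and images and glucose values were not used here. A few neighbour genes enter only the counts of their lists and are not reported here singly.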

Additional observations from a re-analysis of the deposited data

Results flagged for a closer look

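In 60 groups of member values (30 members in 2 groups), 5 values stood apart from the others of their group by Dixon's criterion at the 95% level. Chance marks about 5% of groups. None of the 5 belongs to a called member. BCKDHA was at 14.7 FPKM in diabetic replicate 1, under the other diabetic wounds (22.1 to 26.1 FPKM). ACAD8 was at 14.3 FPKM in diabetic replicate 7, above the other diabetic wounds (11.9 to 12.8 FPKM). HIBADH was at 14.7 FPKM in non-diabetic replicate 1, above the other non-diabetic wounds (13.4 to 13.5 FPKM). ALDH6A1, at 4.49 FPKM against 2.65 to 2.90 FPKM, and MMACHC, at 1.35 FPKM against 1.15 to 1.19 FPKM, were highest in non-diabetic replicate 3.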

How the results depend on the processing

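Members called lower numbered 6 as reported. The number was 3 without diabetic replicate 4 and non-diabetic replicate 1 together (MCCC1, MCCC2 and OXCT1), 0 among the L-named wounds alone and 2 with replicates 1 to 4 of both groups without a block (MCCC1 and MCCC2). Leaving out 1 wound at a time gave 3 to 6, with 3 without non-diabetic replicate 1 or 3. Over all genes tested, those called lower numbered 231 as reported, 99 without non-diabetic replicate 1 and 110 without non-diabetic replicate 3. With replicates 1 to 4 of both groups without a block they numbered 67. With the replicate block 0 members were called, 0 neighbours were called lower, and 11 genes were higher and 5 lower over the whole table. The numbers are not pairs, and this fit uses 8 wounds. Fewer wounds entered these fits. The count stayed within 4 to 7 under the remaining alternatives, and 0 members were called higher under any of the 27.

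Neighbours called lower numbered 1 (ACACA) as reported, 0 among the L-named wounds, 1 among the R-named wounds (HLCS in place of ACACA), 0 without diabetic replicate 4 and non-diabetic replicate 1 together, 0 with replicates 1 to 4 without a block, and 0 to 1 when 1 wound was left out. Neighbours called higher numbered 0 as reported, 1 with quantile normalization and 1 with median centring (ECHDC1), 2 with library weights (ECHDC1 and SLC5A6), and 0 to 2 when 1 wound was left out (ECHDC1, SLC5A6 or SLC7A5). The cause of these differences was not tested. No called member changed direction under the 27 alternatives. Over the log2 fold changes of members and these alternatives, 758 kept their side of the thresholds, 44 calls were lost and 1 was gained. Another 7 values, without a call, changed sign and moved by at least the limma standard error of the reported fold change. DBT had a log2 fold change of -0.04 as reported and 0.28 among L-named wounds.

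As to limits, each group was 1 animal, 4 of the 6 calls lay between adjusted p-values of 0.01 and 0.05 (limma), and low transcripts such as BDH1 (64 to 287 reads a wound) and MMACHC (43 to 129 reads) leave room for changes that 11 wounds would not resolve. All levels are of transcripts, and no amino acid, ketone or enzyme activity was measured in the values used here.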
